A study of Mus musculus with 12 samples.

Results

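AP-1 is a family of transcription factors, and 10 of its genes are described here: the FOS genes Fos, Fosb, Fosl1 and Fosl2, the JUN genes Jun, Junb and Jund, and Atf3, Maff and Batf. They were found by gene symbol in a table of 54532 mouse genes, and all 10 were among the 14506 genes with enough counts to be tested. The samples were RNA-seq libraries of resident peritoneal macrophages from C57BL/6 mice, kept for 24 h in DMEM that was buffered with either MOPS or HEPES. There were 3 libraries each of MOPS cells given LPS at 10 ng/ml for 2 h, HEPES cells given the same LPS, untreated MOPS cells and untreated HEPES cells, called below MOPS with LPS, HEPES with LPS, MOPS and HEPES. The study concerns extracellular acidity, and its design text names pH 6.8 and 7.4 and then MOPS and HEPES, so that MOPS goes with pH 6.8 by word order alone. Buffer and pH changed together, and their parts in a difference between media cannot be told apart. The labels give neither the age, sex or number of mice nor whether replicates came from separate animals or cultures, so p-values measure only the spread between these libraries.

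AP-1 proteins share a basic region that contacts DNA and a leucine zipper that joins them in pairs. FOS proteins need a partner, usually a JUN protein, whereas JUN proteins can also pair with themselves, and ATF, MAF and BATF proteins join or compete for the same partners. Several of the genes are immediate-early genes: in many cells their transcripts rise within minutes of a stimulus and decay again within hours. LPS, the bacterial cell-wall component sensed by Toll-like receptor 4, is known to switch on NF-kappaB and the MAP kinases in macrophages, and the kinases act on AP-1 both through transcription and by phosphorylating the proteins. The libraries measure transcripts only.

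Library totals were 20114613 to 24734853 counts. All 10 macrophage markers examined, among them Adgre1, Csf1r and Gata6, were above 1 CPM in every group. Their summed level was 21714 to 24557 CPM in MOPS with LPS and 34123 to 35773 CPM in HEPES with LPS. Without LPS it was 17317 to 17561 CPM in MOPS and 26508 to 27885 CPM in HEPES. Lyz2 was the largest part of the sum in every group, and Cd14 came second in the LPS groups only. Lyz2, lysozyme, averaged 13827 CPM in MOPS with LPS, 23350 in HEPES with LPS, 12599 in MOPS and 21982 in HEPES. Csf1r, the receptor for macrophage colony-stimulating factor, ran the other way between media, at 2150.5 CPM in MOPS with LPS, 1682 in HEPES with LPS, 1661 in MOPS and 1534 in HEPES. Gata6 averaged 48.1 CPM in MOPS with LPS, 133 in HEPES with LPS, 36.7 in MOPS and 30.2 in HEPES. Timd4 was lower in MOPS than in HEPES with LPS (28.2 and 101 CPM) and at rest (17.2 and 52.4 CPM). Mertk was higher in MOPS with LPS (129 and 63.2 CPM) and at rest (224 and 204 CPM). CPM values here are counts relative to a library size scaled for composition with TMM. A list of 8 B cell markers summed to 114 to 126 CPM in MOPS with LPS, 24.7 to 28.5 CPM in HEPES with LPS, 193 to 202 CPM in MOPS and 81.4 to 147 CPM in HEPES. All 8 T and NK cell markers were below 1 CPM in every group, and the granulocyte marker Ly6g was at 0. The 8 granulocyte and mast cell markers summed to 14.9 to 23.0 CPM in MOPS with LPS, 19.0 to 22.4 CPM in HEPES with LPS, 9.16 to 9.86 CPM in MOPS and 11.6 to 14.7 CPM in HEPES, mostly from S100a8 and Cpa3. Markers of dendritic cells and small peritoneal macrophages summed to 244 to 263 CPM in MOPS with LPS, 291 to 353 CPM in HEPES with LPS, 175 to 194 CPM in MOPS and 195 to 216 CPM in HEPES. In these bulk libraries, fewer cells of a type and less RNA per cell cannot be told apart. The part of other cells in the differences below was not tested.

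The promoters of Fos, Jun, Atf3 and Maff are shown because Jun and Atf3 had the 2 largest positive interactions of medium and LPS among the members, Fos the largest difference between media and Maff the largest change with LPS. Each is the 250 bases before a start site in the RefSeq table for GRCm38.p6, which held 9 of the 10 members in 11 entries. The coordinates are chr12:85473640-85473889 (plus strand) for Fos, chr4:95052223-95052472 (minus) for Jun, chr1:191183334-191183583 (minus) for Atf3 and chr15:79347270-79347519 (plus) for the second of 3 Maff start sites; those of Atf3 and Maff lie inside the genes' intervals in the table. Capitals mark matches, on either strand, to the AP-1 motif TGANTCA, to the longer motif TGACNTCA or to TGACGT, the core of the site for CREB and ATF proteins.
Fos: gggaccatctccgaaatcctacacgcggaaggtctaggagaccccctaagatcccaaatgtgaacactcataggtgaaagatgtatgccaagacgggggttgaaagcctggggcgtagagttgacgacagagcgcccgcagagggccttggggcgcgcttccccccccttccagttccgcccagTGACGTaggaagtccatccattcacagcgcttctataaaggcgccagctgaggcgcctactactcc
Jun: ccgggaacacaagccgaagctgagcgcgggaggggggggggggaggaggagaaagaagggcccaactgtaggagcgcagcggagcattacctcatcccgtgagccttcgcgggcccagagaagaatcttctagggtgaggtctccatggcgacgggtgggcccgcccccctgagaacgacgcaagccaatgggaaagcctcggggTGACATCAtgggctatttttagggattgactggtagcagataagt
Atf3: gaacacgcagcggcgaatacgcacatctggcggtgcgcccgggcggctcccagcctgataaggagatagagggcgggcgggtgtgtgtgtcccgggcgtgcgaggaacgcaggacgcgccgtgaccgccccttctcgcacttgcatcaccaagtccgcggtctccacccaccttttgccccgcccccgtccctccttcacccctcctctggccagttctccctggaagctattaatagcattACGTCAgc
Maff: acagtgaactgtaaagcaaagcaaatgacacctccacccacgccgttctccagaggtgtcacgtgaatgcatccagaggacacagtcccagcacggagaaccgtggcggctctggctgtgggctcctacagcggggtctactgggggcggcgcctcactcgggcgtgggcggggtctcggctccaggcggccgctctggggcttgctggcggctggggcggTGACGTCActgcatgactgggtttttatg
The Fos window held TGACGT on the plus strand of the gene, 66 to 61 bases before the start site. In Jun the match was TGACATCA, of the TGACNTCA form, 45 to 38 bases before the start. The capitals in Atf3 are TGACGT read on the opposite strand, 8 to 3 bases before the start, and those in Maff are the palindrome TGACGTCA, 29 to 22 bases before it, which counts for TGACNTCA and for TGACGT on both strands. Across the family, TGANTCA was found in the windows of 0 of 9 members, TGACNTCA in 2 (Jun and Maff) and TGACGT in 4 (Fos, Atf3, Maff and Batf). Counted by entry, 0 of the 11 held TGANTCA, 3 held TGACNTCA and 4 held TGACGT. Of 32851 mouse promoter entries of the same length, 6.75% held TGANTCA, 7.49% held TGACNTCA and 6.47% held TGACGT. A NF-kappaB consensus was matched in 4 members (Fos, Fosb, Fosl2 and Maff, the last in another of its entries). By entry these were 4 of the 11, beside 3.90% of all promoter entries. These are matches of letters in short windows, and binding was not measured.

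Levels are compared between genes per kilobase of gene length, and their order depends on the lengths used. In CPM without that division, Fosl2 stood above Maff in both LPS groups. Without LPS, Atf3, a stress-induced repressor and activator, stood highest of the 10, at 129 ± 2.60 CPM per kb in MOPS and 106 ± 2.92 CPM per kb in HEPES (SD, n = 3 each). Junb, a JUN protein with a weaker activation domain than Jun, was next, with 95.7 ± 5.40 CPM per kb in MOPS and 86.8 ± 6.62 CPM per kb in HEPES. With LPS, Junb led at 787 ± 33.2 CPM per kb in MOPS and 1014 ± 17.6 CPM per kb in HEPES, and Maff, a small MAF protein without an activation domain, came next at 179.6 ± 10.4 CPM per kb in MOPS and 215 ± 3.86 CPM per kb in HEPES. Fosb was last in all 4 groups, at most 0.589 ± 0.0959 CPM per kb (HEPES with LPS).

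**Figure D1:**
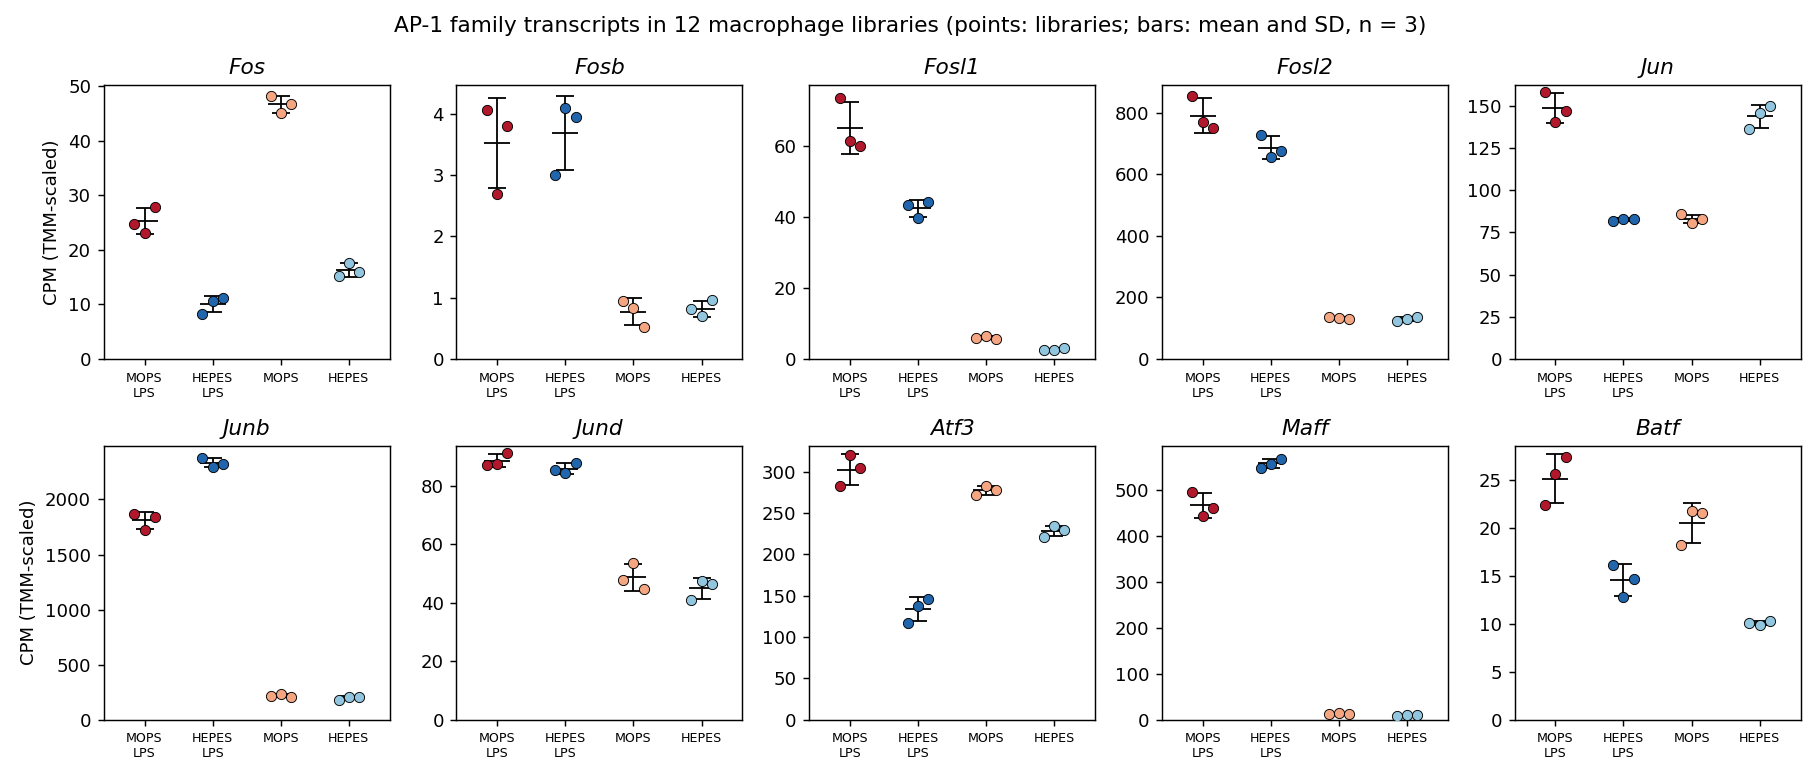
Level of each AP-1 gene in every library, in CPM on TMM-scaled library sizes (linear axes from 0, a scale of its own for each gene), with MOPS with LPS, HEPES with LPS, MOPS and HEPES along the x axis; points are libraries and bars the mean and SD of 3. Jun is high in MOPS with LPS and in HEPES, at 136 to 159 CPM, and low in the other two groups, at 80.6 to 85.7 CPM, while Maff, Junb, Fosl1, Fosl2 and Fosb are far higher in both LPS groups.

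The make-up of the FOS and JUN transcript pools differed between groups. Within the 4 FOS genes per kb, Fos itself held 8.22 ± 1.09% in MOPS with LPS, 4.28 ± 0.772% in HEPES with LPS, 53.2 ± 1.04% in MOPS and 31.3 ± 1.82% in HEPES (SD, n = 3 each). Fosl2 (Fra-2) held most of the FOS pool in 3 groups, with 62.4 ± 0.747% in MOPS with LPS, 70.5 ± 1.45% in HEPES with LPS and 60.9 ± 1.19% in HEPES, and 36.8 ± 0.272% in MOPS. The share of Fosl1 (Fra-1), which like Fosl2 lacks the activation domain of Fos, was 29.0 ± 1.10% in MOPS with LPS, 24.7 ± 0.835% in HEPES with LPS, 9.63 ± 0.762% in MOPS and 7.22 ± 0.540% in HEPES. Per kb, untreated MOPS was thus the group in which Fos outweighed the other FOS genes. No library of another group reached its lowest Fos share of 52.1%. These shares compare genes within a library and do not depend on how libraries are scaled. They do depend on the gene lengths used, 2352 bases for Fos and 9680 for Fosl2. Without division by length, Fosl2 exceeded Fos in untreated MOPS too, at 132.6 CPM against 46.6 CPM.

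Junb held 88.8 ± 0.148% of the JUN pool in MOPS with LPS, 92.9 ± 0.164% in HEPES with LPS, 63.4 ± 0.554% in MOPS and 54.6 ± 0.474% in HEPES. The share of Jun was 5.25 ± 0.160% in MOPS with LPS, 2.37 ± 0.0608% in HEPES with LPS, 17.3 ± 1.23% in MOPS and 28.4 ± 0.735% in HEPES. Jund, the most steadily expressed JUN gene in many tissues, held 6.00 ± 0.264% in MOPS with LPS, 4.72 ± 0.116% in HEPES with LPS, 19.3 ± 0.814% in MOPS and 17.0 ± 0.290% in HEPES. The 3 JUN genes together stood at 887 ± 36.0 CPM per kb in MOPS with LPS, 1092 ± 17.5 in HEPES with LPS, 151 ± 7.60 in MOPS and 159 ± 10.9 in HEPES. For the 4 FOS genes these sums were 131 ± 9.89 CPM per kb in MOPS with LPS, 100.7 ± 4.14 in HEPES with LPS, 37.2 ± 0.861 in MOPS and 22.1 ± 0.980 in HEPES. JUN transcripts exceeded FOS transcripts in every library, with a JUN to FOS ratio of 6.79 ± 0.386 in MOPS with LPS, 10.9 ± 0.281 in HEPES with LPS, 4.06 ± 0.237 in MOPS and 7.18 ± 0.181 in HEPES. The ratio was lower in MOPS than in HEPES with and without LPS, and the ranges of the 2 media did not overlap in either state.

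**Figure D2:**
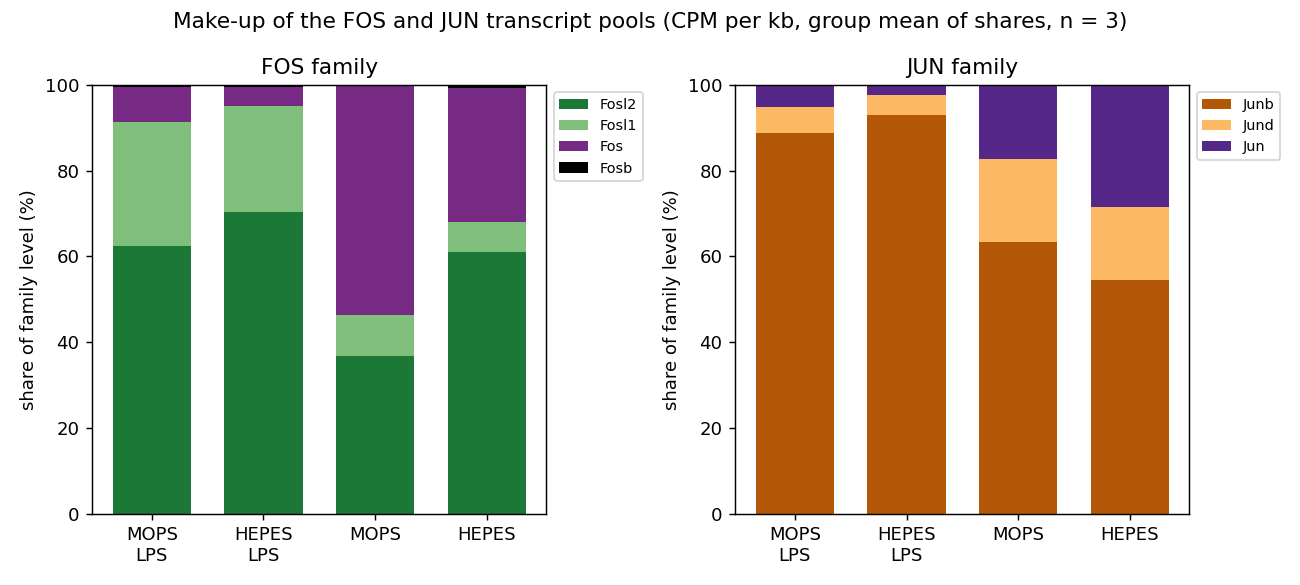
Share of each gene in the summed level of its family (percent of CPM per kb, mean of the shares of 3 libraries), FOS genes on the left and JUN genes on the right, in the 4 groups along the x axis. Fos makes up 53.2% of the FOS pool in MOPS, against 4.28% to 31.3% in the other groups, and Junb makes up 88.8% and 92.9% of the JUN pool in the LPS groups of MOPS and HEPES.

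The LPS comparison in each medium asked how AP-1 transcripts stood 2 h after the stimulus. No earlier time was sampled, so a rise and decay before 2 h would not be seen. The words rose and fell below compare 2 h of LPS with untreated cells. In MOPS, 8 members were higher with LPS and 1 was lower at an adjusted p under 0.05 (edgeR), against 34.1% of all genes tested called higher and 34.9% called lower. In HEPES, 7 were higher and 3 lower, against 35.6% and 41.2% of all genes. The median log2 change of the 10 was 1.52 in MOPS and 1.55 in HEPES, beside -0.03 and -0.08 for all genes tested in those media. With libraries scaled by their totals alone, the median of all genes moved by -0.513 in MOPS and -0.585 in HEPES, and the share of calls that were higher was 18.0% in place of 49.4% in MOPS and 20.6% in place of 46.3% in HEPES. The changes below are relative to the TMM scaling, and the members whose direction turned are named.

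Of the FOS genes, Fosb, Fosl1 and Fosl2 rose with LPS in both media, and Fos fell. Fos is the classic immediate-early gene. It stood at 24.7, 23.1 and 27.8 CPM in MOPS with LPS and 8.33, 10.7 and 11.2 CPM in HEPES with LPS, against 48.2, 45.05 and 46.7 CPM in MOPS and 15.2, 17.6 and 15.9 CPM in HEPES. No LPS library reached an untreated library of its medium. The log2 change was -0.89 ± 0.075 in MOPS (± standard error, adjusted p = 8.33e-12) and -0.69 ± 0.094 in HEPES (adjusted p = 1.28e-07). The summed B cell markers were also lower with LPS in both media, and their part in the Fos difference was not tested.

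Fosl1 had 73.5, 61.4 and 60.0 CPM in MOPS with LPS and 43.3, 39.7 and 44.3 CPM in HEPES with LPS, against 6.01, 6.59 and 5.74 CPM in MOPS and 2.63, 2.55 and 2.99 CPM in HEPES. The LPS libraries were all far above the untreated ones, a log2 change of 3.40 ± 0.084 in MOPS (10.6-fold, adjusted p = 1.83e-25) and 3.96 ± 0.098 in HEPES (15.6-fold, adjusted p = 1.35e-25). Fosl2 had 854, 769 and 749 CPM in MOPS with LPS and 728, 657 and 675 CPM in HEPES with LPS, against 136, 132 and 129.7 CPM in MOPS and 124, 130.1 and 137 CPM in HEPES. It was the FOS gene with the most reads, and it rose by 2.58 ± 0.049 in MOPS (adjusted p = 1.46e-26) and 2.40 ± 0.049 in HEPES (adjusted p = 4.34e-26) on the log2 scale. Fosb, a FOS gene with its own activation domain, had 4.06, 2.70 and 3.80 CPM in MOPS with LPS and 2.99, 4.10 and 3.95 CPM in HEPES with LPS, against 0.949, 0.832 and 0.530 CPM in MOPS and 0.810, 0.699 and 0.959 CPM in HEPES. It rose by 2.17 ± 0.24 in MOPS (adjusted p = 3.12e-09) and 2.16 ± 0.24 in HEPES (adjusted p = 1.55e-09) on the log2 scale. Fosb rests on few reads, 62 in MOPS and 70 in HEPES over the 3 libraries without LPS, and its standard errors were the widest of the 10.

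Of the JUN genes, Junb and Jund rose with LPS in both media, and Jun rose in MOPS and fell in HEPES. Junb had 1872, 1726 and 1837 CPM in MOPS with LPS and 2378, 2298 and 2325 CPM in HEPES with LPS, against 216, 234 and 210.3 CPM in MOPS and 182, 209 and 208 CPM in HEPES. The log2 change was 3.04 ± 0.051 in MOPS (8.22-fold, adjusted p = 1.21e-26) and 3.55 ± 0.052 in HEPES (11.7-fold, adjusted p = 3.80e-28). Jund had 87.0, 87.6 and 91.2 CPM in MOPS with LPS and 85.4, 84.5 and 87.9 CPM in HEPES with LPS, against 47.8, 53.6 and 44.7 CPM in MOPS and 40.9, 47.5 and 46.5 CPM in HEPES. Its changes were 0.86 ± 0.058 in MOPS (adjusted p = 7.45e-14) and 0.94 ± 0.058 in HEPES (adjusted p = 7.79e-15), smaller than those of Junb in both media.

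Jun, which can bind DNA as a pair with itself and is a main target of the JNK kinases, behaved differently in the 2 media. It had 159, 141 and 147 CPM in MOPS with LPS, against 85.7, 80.6 and 82.9 CPM in MOPS. In HEPES it had 81.5, 82.96 and 83.2 CPM with LPS, against 136, 146 and 149.8 CPM without. The groups did not overlap in either medium, and the log2 changes were 0.84 ± 0.046 in MOPS (adjusted p = 1.54e-16) and -0.80 ± 0.047 in HEPES (adjusted p = 4.11e-16). Ordered by level on the TMM scale, MOPS with LPS and HEPES overlapped at the top and MOPS and HEPES with LPS overlapped at the bottom. No library lay in between on that scale, and this pairing of groups depends on the scaling. Over the alternatives the log2 change of Jun ranged from 0.33 to 0.88 in MOPS and from -1.39 to -0.75 in HEPES, so its direction held in both media.

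Maff had the largest LPS change of the 10. It had 495, 442 and 460.4 CPM in MOPS with LPS and 548, 555 and 568 CPM in HEPES with LPS, against 12.97, 14.1 and 12.5 CPM in MOPS and 8.14, 10.6 and 10.4 CPM in HEPES. These were log2 changes of 5.14 ± 0.065 in MOPS (35.2-fold, adjusted p = 1.42e-27) and 5.84 ± 0.068 in HEPES (57.5-fold, adjusted p = 1.39e-28). Atf3, known in macrophages as a brake on Toll-like receptor responses, had 282, 319.8 and 305 CPM in MOPS with LPS, against 271, 283 and 278 CPM in MOPS. In HEPES it had 117, 137 and 146 CPM with LPS, against 221, 234 and 229.9 CPM without. The MOPS groups overlapped (log2 difference 0.12 ± 0.059, adjusted p = 0.0693), while in HEPES Atf3 fell by 0.78 on the log2 scale (standard error 0.061, adjusted p = 1.49e-09). The MOPS value was sensitive to the analysis: it passed the threshold with RLE size factors (0.13, adjusted p = 0.0498), with the 2 MOPS groups alone (0.12, adjusted p = 0.0132) and without MOPS with LPS replicate 7, HEPES with LPS replicate 10 or HEPES with LPS replicate 12, and with library totals alone it turned to -0.39 (adjusted p = 4.07e-05), its adjusted p ranging up to 0.252 over the alternatives.

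Batf, a partner of JUN proteins best known in lymphocytes, had 22.3, 25.6 and 27.3 CPM in MOPS with LPS and 16.1, 12.8 and 14.6 CPM in HEPES with LPS, against 18.1, 21.8 and 21.6 CPM in MOPS and 10.1, 9.85 and 10.2 CPM in HEPES. It was higher with LPS by 0.29 ± 0.085 in MOPS (adjusted p = 0.00337) and 0.53 ± 0.098 in HEPES (adjusted p = 1.58e-05) on the log2 scale, but with library totals alone both directions turned, to -0.22 in MOPS (adjusted p = 0.0203) and -0.06 in HEPES (adjusted p = 0.598). Over the alternatives the adjusted p ranged from 7.08e-04 to 0.0418 in MOPS and from 8.33e-07 to 0.598 in HEPES. Its groups did not overlap in either medium on the TMM scale.

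**Figure D3:**
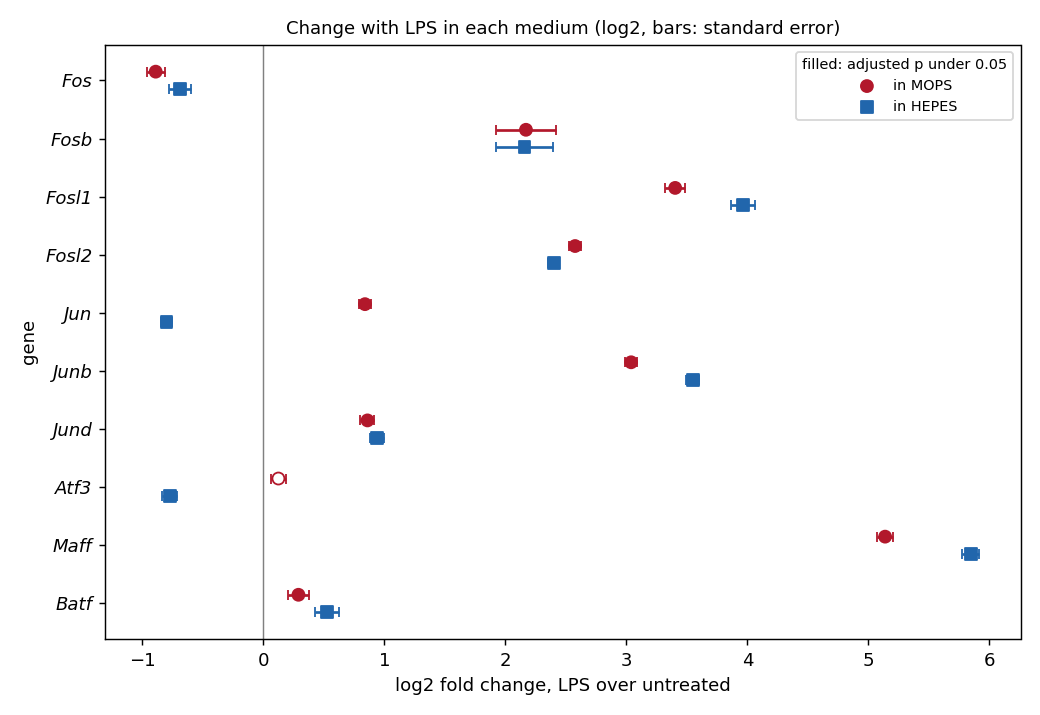
Change of each AP-1 gene with LPS, as log2 fold change of LPS over untreated, in MOPS (circles) and HEPES (squares); bars are standard errors and filled points passed an adjusted p of 0.05. Fos is negative in both media, Jun is at 0.84 in MOPS and -0.80 in HEPES, and Atf3 is at 0.12 (open) and -0.78; with library totals alone, Batf turned negative in both media and Atf3 in MOPS.

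The comparison of media without LPS asked how resting cells in the MOPS medium differed from those in HEPES. Of the members, 6 were higher in MOPS, against 24.3% of all genes tested, and 1 was lower, against 25.4%. The median log2 difference was 0.21 for the 10 and -0.01 for all genes tested. Fos differed most: its MOPS libraries of 45.05 to 48.2 CPM stood above HEPES libraries of 15.2 to 17.6 CPM by a log2 difference of 1.52 ± 0.075 (2.87-fold, adjusted p = 1.27e-16). Fosl1 was higher by 1.17 ± 0.13 (adjusted p = 3.48e-09) and Batf by 1.03 ± 0.090 (adjusted p = 4.99e-11), both without overlap. The summed B cell markers, 193 to 202 CPM in MOPS and 81.4 to 147 CPM in HEPES, differed in the same direction, and their part in the Fos and Batf differences was not tested. Maff, at 12.5 to 14.1 CPM in MOPS and 8.14 to 10.6 CPM in HEPES, was higher by 0.45 ± 0.083 (adjusted p = 7.68e-05), and Atf3 was higher by 0.28 ± 0.059 (adjusted p = 6.32e-04).

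Jun was the single member lower in MOPS at rest, with 80.6 to 85.7 CPM in MOPS and 136 to 149.8 CPM in HEPES, a log2 difference of -0.79 ± 0.046 (adjusted p = 2.24e-15). Junb was higher in MOPS by only 0.14 ± 0.048 (adjusted p = 0.0161). That call was lost with the 2 groups fitted alone (adjusted p = 0.0506), without MOPS replicate 2 (0.10, adjusted p = 0.138) and without HEPES replicate 4 (0.08, adjusted p = 0.182), the adjusted p ranging from 0.00267 to 0.182 over the alternatives. Fosb (-0.08 ± 0.29, adjusted p = 0.840), Fosl2 (0.03 ± 0.048, adjusted p = 0.702) and Jund (0.12 ± 0.059, adjusted p = 0.0962) did not pass the test, and their groups overlapped. Jund passed it with RLE size factors (adjusted p = 0.0456), with library totals (adjusted p = 0.0496), without MOPS replicate 3 (adjusted p = 0.0195) and without HEPES replicate 5 (adjusted p = 0.0462), with values up to 0.614 elsewhere. For Fosb and Fosl2 the sign itself turned when single libraries were left out.

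With LPS, 6 members were higher in MOPS and 2 were lower, against 26.9% of all genes tested in each direction. The median log2 difference was 0.41 for the 10 and below 0.01 in size for all genes tested. Fos was again the furthest apart, at 23.1 to 27.8 CPM in MOPS with LPS and 8.33 to 11.2 CPM in HEPES with LPS, a log2 difference of 1.32 ± 0.093 (2.49-fold, adjusted p = 3.78e-13). Atf3, at 282 to 319.8 CPM in MOPS with LPS and 117 to 146 CPM in HEPES with LPS, followed with 1.18 ± 0.061 (adjusted p = 1.13e-11). Jun was higher by 0.85 ± 0.047 (adjusted p = 7.91e-16), the opposite of its difference at rest, and its groups again did not overlap. Batf was higher by 0.79 ± 0.092 (adjusted p = 1.34e-08) and Fosl1 by 0.61 ± 0.068 (adjusted p = 5.17e-09). B cell markers summed to 114 to 126 CPM in MOPS with LPS and 24.7 to 28.5 CPM in HEPES with LPS.

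Fosl2 was higher in MOPS with LPS by 0.20 ± 0.046 (adjusted p = 4.43e-04), a call lost on leaving out replicate 7 of that group (0.10, adjusted p = 0.0651), while other alternatives gave adjusted p as low as 1.99e-07. Junb and Maff were the 2 members lower in MOPS with LPS. Junb differed by -0.37 ± 0.046 (adjusted p = 1.88e-07) and Maff by -0.26 ± 0.049 (adjusted p = 9.54e-05), and neither overlapped between media. Fosb (-0.07 ± 0.20, adjusted p = 0.797) and Jund (0.04 ± 0.057, adjusted p = 0.541) did not pass the test. With library totals alone Fosb turned to 0.02 (adjusted p = 0.940), and Jund passed at 0.14 (adjusted p = 0.0432), its adjusted p reaching 0.966 under other alternatives; 62.4% of all genes called were then higher in MOPS, in place of 3904 higher and 3897 lower.

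**Figure D4:**
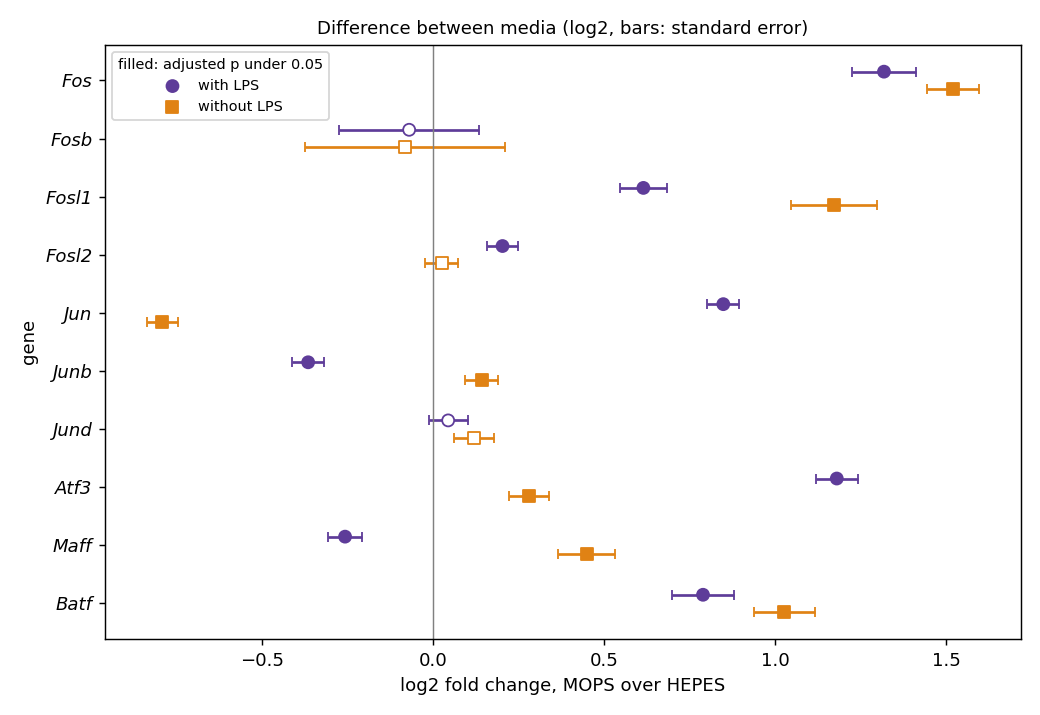
Difference between media for each AP-1 gene, as log2 fold change of MOPS over HEPES, with LPS (circles) and without (squares); bars are standard errors and filled points passed an adjusted p of 0.05. Jun lies at 0.85 with LPS and -0.79 without, Junb and Maff cross 0 the other way, and Fosb (whose sign with LPS turned with library totals alone) and Jund are open in both states.

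Whether the LPS change itself differed between media was tested as an interaction, in which the HEPES response is subtracted from the MOPS response. It was positive for 3 members, against 21.9% of all genes tested, negative for 3, against 17.6%, and not called for 4. With library totals alone, 66.4% of all interaction calls were positive in place of 55.5%. Jun had the largest value, 1.64 ± 0.066 (adjusted p = 9.96e-18), and Atf3 was at 0.90 ± 0.085 (adjusted p = 1.39e-07). For Maff the value was -0.71 ± 0.097 (adjusted p = 2.35e-06), for Fosl1 -0.56 ± 0.14 (adjusted p = 0.00239) and for Junb -0.51 ± 0.067 (adjusted p = 8.63e-07), so these 3 rose less with LPS in MOPS than in HEPES. The call for Fosl2, 0.18 ± 0.067 (adjusted p = 0.0350), was lost in DESeq2 (0.14, adjusted p = 0.145), with RLE size factors (0.14, adjusted p = 0.115) and in 8 of the 12 fits that left out a library. Its adjusted p ranged from 0.00254 to 0.416, and those 8 libraries were MOPS replicates 2 and 3, HEPES replicates 5 and 6, MOPS with LPS replicates 7 and 8 and HEPES with LPS replicates 11 and 12.

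Fos (-0.20 ± 0.12, adjusted p = 0.199), Batf (-0.24 ± 0.13, adjusted p = 0.150), Jund (-0.07 ± 0.082, adjusted p = 0.505) and Fosb (0.01 ± 0.35, adjusted p = 0.983) did not pass the interaction test. Fos passed on leaving out replicate 10 of HEPES with LPS (-0.37, adjusted p = 0.0139), and its adjusted p reached 0.423 under other alternatives. Batf passed on leaving out replicate 11 of that group (-0.37, adjusted p = 0.0291), and otherwise reached 0.341.

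Other genes that act with or on AP-1 were counted from lists chosen for their known roles, on the TMM scale alone. Of all genes tested, 34.1% were higher and 34.9% lower with LPS in MOPS, and 35.6% and 41.2% in HEPES; between media, 24.3% were higher and 25.4% lower in MOPS at rest, and 26.9% each way with LPS. Of 26 other basic leucine zipper genes, all tested, 14 were higher and 9 lower with LPS in MOPS, and 17 higher and 7 lower in HEPES, with median log2 changes of 0.18 and 0.32. Between media, 11 were higher and 6 lower in MOPS at rest, and 7 were higher and 13 lower with LPS. Mafg, which like Maff is a small MAF protein, was higher in MOPS both with LPS (0.79 ± 0.039, adjusted p = 3.36e-17) and at rest (0.41 ± 0.039, adjusted p = 2.97e-10). The interaction was positive for 5 of the 26, beside 21.9% of all genes, and negative for 12, beside 17.6%. Nfe2l2 (NRF2), a partner of small MAF proteins at antioxidant genes, had a positive interaction (1.05 ± 0.049, adjusted p = 1.59e-16) and was lower in MOPS at rest (-0.79 ± 0.035, adjusted p = 2.89e-18). Jun had the same 2 signs, but Nfe2l2 rose with LPS in both media, by 1.43 ± 0.035 in MOPS (adjusted p = 1.03e-25) and 0.38 ± 0.035 in HEPES (adjusted p = 2.22e-11).

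Of 26 MAP kinase cascade genes, 24 were tested; 14 were higher and 6 lower with LPS in each medium, beside 34.1% and 34.9% of all genes in MOPS and 35.6% and 41.2% in HEPES. Map3k5 (ASK1), which feeds the JNK and p38 branches, rose by 2.51 ± 0.050 in MOPS (adjusted p = 5.54e-28) and 3.05 ± 0.050 in HEPES (adjusted p = 3.14e-30) on the log2 scale. Mapkapk2, the p38 target that stabilises cytokine transcripts, rose by 2.01 ± 0.040 in MOPS (adjusted p = 3.28e-28) and 1.89 ± 0.040 in HEPES (adjusted p = 8.93e-28). Between media, 12 were higher and 2 lower in MOPS at rest, beside 24.3% and 25.4% of all genes, and 6 were higher and 11 lower with LPS, beside 26.9% in each direction. The interaction was positive for 3 genes (21.9% of all genes), among them Map3k1 (0.90 ± 0.089, adjusted p = 1.68e-09), a kinase upstream of JNK, and negative for 11 (17.6% of all genes), among them Map3k8 (-1.04 ± 0.076, adjusted p = 3.45e-12), which links LPS to ERK.

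Serum response factor and its cofactors drive Fos transcription in many cells. A list of 10 genes held these and the RSK and MSK kinases (Rps6ka1, Rps6ka3, Rps6ka4 and Rps6ka5), which act below the MAP kinases. Of the list, 6 were higher and 2 lower with LPS in MOPS, beside 34.1% and 34.9% of all genes, and 8 higher and 2 lower in HEPES, beside 35.6% and 41.2%. The ternary complex factor Elk3 rose by 3.63 ± 0.11 in MOPS (adjusted p = 7.34e-11) and 3.00 ± 0.10 in HEPES (adjusted p = 1.94e-10). Between media, 4 were higher and 2 lower in MOPS at rest, and 5 higher and 2 lower with LPS, beside 24.3% and 25.4% of all genes at rest and 26.9% each way with LPS. Of 9 genes that act on the stability of AP-1 proteins or transcripts, 5 were higher and 4 lower with LPS in MOPS, and 4 higher and 4 lower in HEPES, the shares over all genes being those given for LPS above. Zfp36 (tristetraprolin), which promotes decay of AU-rich transcripts including Fos, rose by 1.74 ± 0.045 in MOPS (adjusted p = 2.60e-25) and 1.08 ± 0.045 in HEPES (adjusted p = 5.41e-20). Cop1, part of a ubiquitin ligase for JUN proteins, was higher in MOPS at rest by 0.98 ± 0.052 (adjusted p = 2.93e-16), and its interaction was -0.77 ± 0.073 (adjusted p = 7.80e-10). In this list 5 were higher and 1 lower in MOPS at rest, and 3 higher and 2 lower with LPS.

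Of 26 genes reported elsewhere as AP-1 targets, 21 were higher and 2 lower with LPS in MOPS, and 21 higher and 3 lower in HEPES, beside 34.1% and 34.9% of all genes in MOPS and 35.6% and 41.2% in HEPES. The median log2 change was 2.34 in MOPS and 2.55 in HEPES. At rest 9 were higher and 10 lower in MOPS, beside 24.3% and 25.4% of all genes, and with LPS 7 were higher and 13 lower, beside 26.9% each way. Hmox1 (heme oxygenase) was higher in MOPS with LPS (2.05 ± 0.043, adjusted p = 4.51e-26) and at rest (2.29 ± 0.044, adjusted p = 4.12e-27), while Cd44, an adhesion receptor, was lower in MOPS with LPS (-0.76 ± 0.041, adjusted p = 4.40e-16) and higher in MOPS at rest (0.47 ± 0.042, adjusted p = 6.89e-11). Many of these genes have other regulators, and no list was tested as a set.

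The genes lie on 8 chromosomes in the mm10 coordinates of the table. Fos (ENSMUSG00000021250, chromosome 12 from 85473890 to 85477273) and Batf (ENSMUSG00000034266, 85686669 to 85709087) are both on the plus strand, 209.4 kb apart. The AP-1 repressor Jdp2 lies between them and was named after its values were seen. With LPS, Jdp2 averaged 59.4 ± 8.13 CPM in the MOPS medium and 69.8 ± 6.94 CPM in HEPES, against untreated levels of 11.4 ± 1.22 CPM in MOPS and 12.5 ± 1.14 CPM in HEPES (SD, n = 3 each). Fos and Batf, higher in MOPS with and without LPS, thus flank a gene that rose with LPS by 2.38 ± 0.12 in MOPS (adjusted p = 3.66e-10) and 2.48 ± 0.11 in HEPES (adjusted p = 1.09e-10) and did not pass the test between media with LPS (adjusted p = 0.0616) or at rest (adjusted p = 0.443). Junb (ENSMUSG00000052837, 84974484 to 84978718, minus strand) and Jund (ENSMUSG00000071076, 70698949 to 70700616, plus strand) share chromosome 8.

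The other members are Fosb (ENSMUSG00000003545, chromosome 7 from 19302696 to 19310051, minus strand), Fosl1 (ENSMUSG00000024912, chromosome 19 from 5447703 to 5455945, plus) and Fosl2 (ENSMUSG00000029135, chromosome 5 from 32135801 to 32157842, plus). Jun (ENSMUSG00000052684) is on chromosome 4 from 95049034 to 95052222 on the minus strand. Atf3 (ENSMUSG00000026628) is on chromosome 1 from 191170296 to 191218039 on the minus strand, and Maff (ENSMUSG00000042622) is on chromosome 15 from 79346621 to 79359076 on the plus strand. Junb overlaps Prdx2 on the opposite strand by 351 bases, and Jun overlaps Junos by 689 bases. Jund, with a gene length of 1668 bases, overlaps Gm11175 on the opposite strand by 919 bases, and Atf3 overlaps Gm24748 by 108. Whether counting used the strand is not given in the sources used here, so reads of such pairs may not be told apart. Prdx2 held 6.12% and Junos 0.522% as many counts as their partners over the 12 libraries. Gm11175 and Gm24748 held 0 counts, which does not show whether reads in the overlaps were counted for Jund and Atf3. The part of these overlaps in the levels and shares above was not tested.

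The genes whose log2 CPM followed each member most closely over the 12 libraries were found among 8506 protein-coding genes with a mean of at least 10 CPM in a group. The libraries fall into 4 groups, so Pearson's r mainly compares group means, and it is given as a description. Maff was followed by Nfkbia (r = 0.9997), the NF-kappaB inhibitor, and Junb by Zc3h12a (0.999) and Ier3 (0.999). Fosl2 was followed by Nfkbie (0.998), Fosl1 by Ampd3 (0.998), Jund by Peli3 (0.995) and Fosb by Uqcrfs1 (0.984). Fos was followed by Pnpla2 (0.990), a triglyceride lipase, Atf3 by Laptm5 (0.985) and Batf by Nucb2 (0.984). Jun had the least close match of the 10, Ndufa3 (0.931).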

How the data were processed

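The deposited table holds raw counts per gene and library and FPKM; its headers name both. The counts are whole numbers and were used for all tests. The FPKM values were made by the authors, and in each library equal the count divided by gene length and by a library scale other than the total; they served only to check that the genes ranked alike. Per the submitters' processing notes, CASAVA 1.8, HISAT2 2.0.5, featureCounts 1.5.0-p3 and build mm10 were used; these sources name no annotation release, strand setting or role of each tool. Columns of the authors' own comparisons were not used.

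Counts were analysed with edgeR 4.0.16 in R 4.3.3: filterByExpr kept 14506 of 54532 genes, TMM scaled the libraries, and a quasi-likelihood model (robust) with 1 mean for each group used the 12 libraries together (8 residual degrees of freedom, biological coefficient of variation 4.62%). P-values were adjusted by Benjamini-Hochberg over all genes tested and called under 0.05. Standard errors were obtained as |log2 change|/√F. Library pairs within a group differed by more than counting error (chi-square per degree of freedom 2.66 to 6.54). Shares and sums use CPM per kilobase of the gene length in the table. The fit was also run on simulated data in which known genes were changed evenly up and down. Those data held no shift in composition between groups, so they do not test the scaling between LPS and untreated libraries.

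Alternatives were DESeq2 1.42.0, RLE size factors, library totals alone, no filter on low counts, fits of the compared groups alone, and leaving out each library. All 10 members are named in every contrast. Apart from Jdp2, the list genes given with values were among the 3 with the smallest p of their list in a contrast. Some of them are also given in contrasts where they were not. Each member's closest genes by Pearson's r are drawn from the 2 highest. Results for 2 genes on the lists are not reported here. The members, lists and tests were chosen with earlier results of these data known. GENCODE vM21 held 54409 of the IDs, and gave 9 of the 10 members the same coordinates.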

Additional observations from a re-analysis of the deposited data

Results flagged for a closer look

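The LPS change differed between media, by the interaction test, for 6 members. It was positive for 3, beside 21.9% of all genes tested, and negative for 3, beside 17.6%. The MOPS response less the HEPES response was 1.64 for Jun, 0.90 for Atf3, 0.18 for Fosl2, -0.56 for Fosl1, -0.51 for Junb and -0.71 for Maff on the log2 scale. Jun rose in MOPS and fell in HEPES. Atf3 fell in HEPES and was at 0.12 in MOPS, which did not pass the test but did in 5 alternatives, and turned to -0.39 with library totals alone. The value for Fosl2 lost its call in 10 alternatives, and the calls for Jun, Atf3, Fosl1, Junb and Maff held in every alternative run.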

How the results depend on the processing

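Over 840 values of single members under alternatives, 796 kept their direction and side of the threshold, 14 lost a call, 12 gained one and 18 turned in sign; totals of called genes and members, both directions together, stayed within 1.5 times. By direction they did not: with library totals alone, genes higher with LPS numbered 2084 in place of 4945 in MOPS and 2502 in place of 5168 in HEPES, genes lower numbered 9506 in place of 5062 and 9666 in place of 5982, and members lower in MOPS numbered 3 in place of 1. With library totals alone, LPS in MOPS gave Atf3 -0.39 and Batf -0.22, LPS in HEPES gave Batf -0.0569, and MOPS over HEPES with LPS gave Fosb 0.0214. The interaction of Fosb turned to -0.0171 in DESeq2 and -0.0252 with RLE size factors. Leaving out 1 library gave -0.24 to 0.11 for Fosb and -0.0111 to 0.0559 for Fosl2 between media at rest, -0.24 to 0.0572 for Fosb and -0.0085 to 0.0438 for Jund between media with LPS, and interactions of -0.18 to 0.17 for Fosb and -0.13 to 0.0021 for Jund. The sign changes with library totals and RLE follow from the scaling, which moved the median of all genes by -0.513 and -0.585 with LPS in MOPS and HEPES and by 0.0927 between media with LPS under library totals, and by -0.0377 in the interaction under RLE; the cause of the others was not tested. No paired analysis was possible because the groups share no replicate numbers. Depth limits Fosb, with 62 to 205 counts a group.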
